A study of Mus musculus with 6 samples.

Results

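The RNA of the genes that encode the mTOR complexes, the TSC complex and the S6 kinases was compared between morphine and saline samples of the mouse medial prefrontal cortex (mPFC). The 10 genes were Mtor, Mlst8, Deptor, Rptor, Akt1s1, Rictor, Tsc1, Tsc2, Rps6kb1 and Rps6kb2. They were chosen by their gene symbol in a table of 31763 genes, with no threshold on a measured value. All 10 had at least 10 counts in at least 3 libraries and so were among the 18970 genes tested. The samples came from male C57BL/6J mice, aged between 8 and 10 weeks, that were trained for conditioned place preference (CPP), a test in which an animal learns to prefer the compartment where it received a drug. The 3 morphine samples came from mice given 10 mg/kg morphine i.p., and the 3 saline samples from mice given 10 ml/kg saline i.p. About a week of withdrawal in the home cage followed, and then a further CPP test. By the paper's account, the tissue was taken immediately after that test. The labels do not say whether a sample was 1 mouse or a pool, so the p-values below measure the spread between samples, which may be technical in part. RNA was rRNA-depleted before sequencing, and the libraries kept the strand of the transcript.

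mTOR is a serine/threonine kinase that works in a pair of complexes. mTORC1, with the scaffold raptor, drives cap-dependent translation and ribosome production through the 4E-BPs and the S6 kinases, and mTORC2, with the scaffold rictor, phosphorylates AKT, SGK and PKC. The TSC complex switches off RHEB, the GTPase that activates mTORC1, and in neurons the pathway is known for its part in activity-dependent protein synthesis, synaptic plasticity and memory. These proteins are controlled largely by phosphorylation and by their place in the cell, which RNA sequencing does not measure.

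Counted reads per library ranged from 17984153 to 23529592. One library stood apart: the summed level of 6 markers of olfactory bulb neurons was 1.997 to 2.27 FPKM in the morphine libraries, while it was 56.8 FPKM in saline 1 and 1.70 and 1.73 FPKM in the other saline libraries. FPKM divides the fragments of a gene by its length and by the total of the library, and it allows levels to be compared between genes. Eomes, a marker of bulb projection neurons, had 1 to 7 counts in the morphine libraries, 462 counts in saline 1, 2 counts in saline 2 and 0 counts in saline 3. In saline 1 the 5 astrocyte markers also summed to 137 FPKM, against 105 to 111 FPKM in morphine and 102 and 106 FPKM in saline 2 and 3, and the 5 upper-layer markers to 103 FPKM, against 120 to 142 FPKM in morphine. The 7 neuron markers summed to 899 to 945 FPKM in morphine and 886 to 929 FPKM in saline, but the markers of inhibitory neurons among them, Gad1 and Gad2, stood apart in saline 1. Gad1 had 33.6 to 34.7 FPKM in morphine, 74.7 FPKM in saline 1 and 30.9 and 33.0 FPKM in the other saline libraries. Gad2 had 25.7 to 27.0 FPKM in morphine, 41.4 FPKM in saline 1 and 25.7 and 26.3 FPKM in the other saline libraries. None of the markers of cortical cell types was at 0 in all libraries. In bulk tissue, fewer cells of a type and less RNA per cell cannot be told apart.

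None of the 10 genes changed between morphine and saline at an adjusted p under 0.05 in edgeR's quasi-likelihood F test, where the background over all 18970 genes was also 0%. At an unadjusted p under 0.05, 0 of the 10 were called by edgeR and 0 by DESeq2, against a background in edgeR of 7.72% of all genes, 2.77% higher and 4.96% lower in morphine. Of the 10 log2 fold changes, 4 were above 0 and 6 below 0. Their median was -0.03, against -0.01 over all genes tested, and the median size of the change was 0.06, against 0.10 over all genes. That size was 0.08 over protein-coding genes and also 0.06 over the 127 other pathway genes described below. The 95% interval of every one of the 10 genes lay within a fold change of 1.5 in either direction, and that of 6 of them within 1.2. Of all genes tested, which include many of low counts, 63.7% had an interval within 1.5. The median width of the interval on the log2 scale was 0.29 for the 10 genes, 0.32 for the 127 pathway genes and 0.57 over all genes. The 10 genes varied little between libraries of the same group, with a median SD of 0.07 on the log2 scale. It was 0.15 over all genes, which include many of low counts, and 0.07 over the 127 other pathway genes. The plot of intervals sets the 10 genes side by side.

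**Figure D1:**
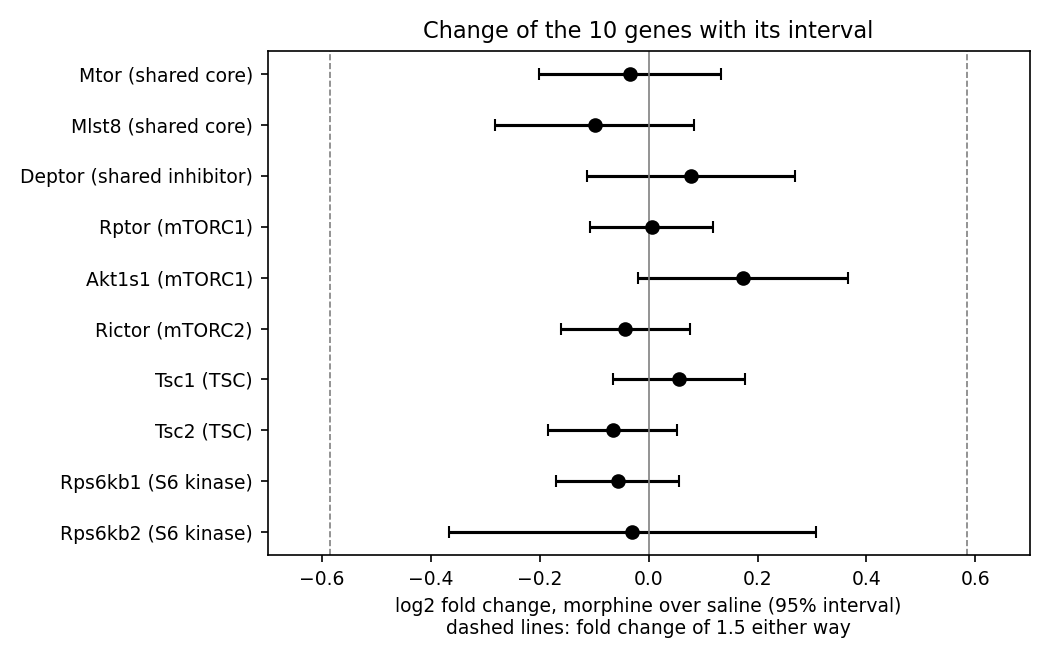
Log2 fold change of the 10 genes, morphine over saline, with the 95% interval from edgeR's quasi-likelihood fit (points and bars, 3 libraries per group); the role of each gene stands in brackets and dashed lines mark a fold change of 1.5 either way. Every interval includes 0 and lies inside the dashed lines, with Akt1s1 farthest to the right at 0.17 and Rps6kb2 widest, at -0.37 to 0.31.

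Mtor, the kinase itself, had the highest level of the 10 genes, a mean of 19.8 ± 1.67 FPKM over the 6 libraries (SD). It is a gene of up to 58 exons on the plus strand at chr4:148448611-148557683 of GRCm38. Mtor had 19.6, 19.1 and 19.7 FPKM in morphine 1 to 3, against 23.1, 19.1 and 18.4 FPKM in saline 1 to 3. The morphine libraries were close together and lay inside the range of the saline libraries, and saline 1 was the highest of all 6. The log2 fold change was -0.03 (SE 0.08, edgeR adjusted p = 0.914). Without saline 1, the library with the olfactory bulb markers, it was 0.06 (edgeR adjusted p = 0.685), so the sign of the Mtor difference rested on that library. The part of the bulb and astrocyte markers in the Mtor level of saline 1 was not tested.

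Mlst8 encodes mLST8, a WD-repeat protein that binds the kinase domain in both complexes, and it was the lowest of the 10 genes by the deposited FPKM. Mlst8 had 5.26, 6.06 and 5.67 FPKM in morphine, against 6.03, 5.89 and 6.52 FPKM in saline. The lowest value was in morphine 1 and the highest in saline 3, and the groups overlapped (log2 fold change -0.10, SE 0.08, edgeR adjusted p = 0.762). Deptor encodes an inhibitor that binds mTOR in both complexes. Deptor had 7.35, 6.64 and 7.12 FPKM in morphine, against 7.51, 6.88 and 5.89 FPKM in saline. The saline libraries spread more widely than the morphine ones and included both the highest and the lowest value. Deptor had a log2 fold change of 0.08 (SE 0.09, edgeR adjusted p = 0.820). Without saline 1 it was 0.15 and passed the unadjusted threshold of 0.05 but not the adjusted one (edgeR adjusted p = 0.421), and without saline 3 it was near 0.

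Rptor and Rictor encode the scaffolds that set mTORC1 apart from mTORC2. Rptor had 9.24, 9.48 and 9.49 FPKM in morphine, against 10.1, 9.18 and 9.23 FPKM in saline. Saline 1 was again the highest library, and the other 5 lay within 9.18 to 9.49 FPKM. Rptor had a log2 fold change of 0.01 (SE 0.05, 95% interval -0.11 to 0.12, edgeR adjusted p = 0.981), the smallest of the 10. Rictor had 8.62, 9.78 and 8.82 FPKM in morphine, against 9.65, 9.49 and 9.26 FPKM in saline. Morphine 1 and morphine 3 lay below all saline libraries, whereas morphine 2 lay above them. Rictor had a log2 fold change of -0.04 (SE 0.05, 95% interval -0.16 to 0.08, edgeR adjusted p = 0.842). Both scaffolds were present at nearly equal RNA levels, with a Rptor to Rictor ratio of 1.07, 0.969 and 1.08 in morphine and 1.04, 0.968 and 0.996 in saline.

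Akt1s1, the gene of PRAS40, showed the largest difference of the 10. PRAS40 is a subunit and substrate of mTORC1 that inhibits the complex until AKT phosphorylates it. Akt1s1 had 7.62, 6.82 and 7.37 FPKM in morphine, against 6.59, 6.25 and 6.80 FPKM in saline. All 3 morphine libraries lay above the saline ones by FPKM, with morphine 2 only just so. By CPM, the count scaled to the library total with edgeR's TMM factors but not to gene length, the groups met: Akt1s1 had 23.7, 20.80 and 23.1 CPM in morphine and 19.9, 19.3 and 20.84 CPM in saline. The log2 fold change was 0.17 (SE 0.09), a fold of 1.13 with a 95% interval of 0.986 to 1.29, and it did not pass the test (edgeR adjusted p = 0.667). Without morphine 2 it was 0.23 and passed the unadjusted threshold of 0.05 but not the adjusted one (edgeR adjusted p = 0.433). The counts behind it were 429, 377 and 533 in morphine and 461, 409 and 408 in saline.

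Tsc1 and Tsc2 encode hamartin, the stabilizing subunit of the TSC complex, and tuberin, its GTPase-activating subunit. Tsc1 had 9.79, 10.3 and 9.89 FPKM in morphine, against 9.23, 9.93 and 10.0 FPKM in saline. The groups overlapped, with saline 1 the lowest library (log2 fold change 0.06, SE 0.05, edgeR adjusted p = 0.798). Without saline 1 the log2 fold change of Tsc1 was 0.01 (edgeR adjusted p = 0.959). Tsc2 had 13.2, 14.3 and 14.1 FPKM in morphine, against 14.2, 14.8 and 15.1 FPKM in saline. Morphine 2 alone lay inside the saline range by FPKM, and the log2 fold change was -0.07 (SE 0.05, edgeR adjusted p = 0.757). The differences of both genes were small and opposite in sign, and the Tsc1 to Tsc2 ratio of FPKM within a library was 0.740, 0.721 and 0.702 in morphine, against 0.651, 0.671 and 0.663 in saline. Every morphine library had a higher ratio than every saline library, with means of 0.721 ± 0.0191 in morphine and 0.662 ± 0.0105 in saline (SD, n = 3 each) and a difference of 0.12 on the log2 scale. It was 0.11 without saline 1, and between 0.10 and 0.14 with any 1 library left out. Of the 6 ratios between the 10 genes that were computed, this was the only 1 whose groups did not overlap. It is given as a description with no test, since the genes were chosen with earlier results of these data known. No share of non-overlapping ratios over other pairs of genes was computed, so the separation cannot be read as particular to this pair. For single genes, groups were apart for 5.98% of all genes tested on the higher side and 7.32% on the lower. The other ratios, Rps6kb1 to Rps6kb2, Deptor to Mtor, Akt1s1 to Rptor and Mlst8 to Mtor, overlapped and differed by -0.01, 0.11, 0.16 and -0.07 on the log2 scale.

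**Figure D2:**
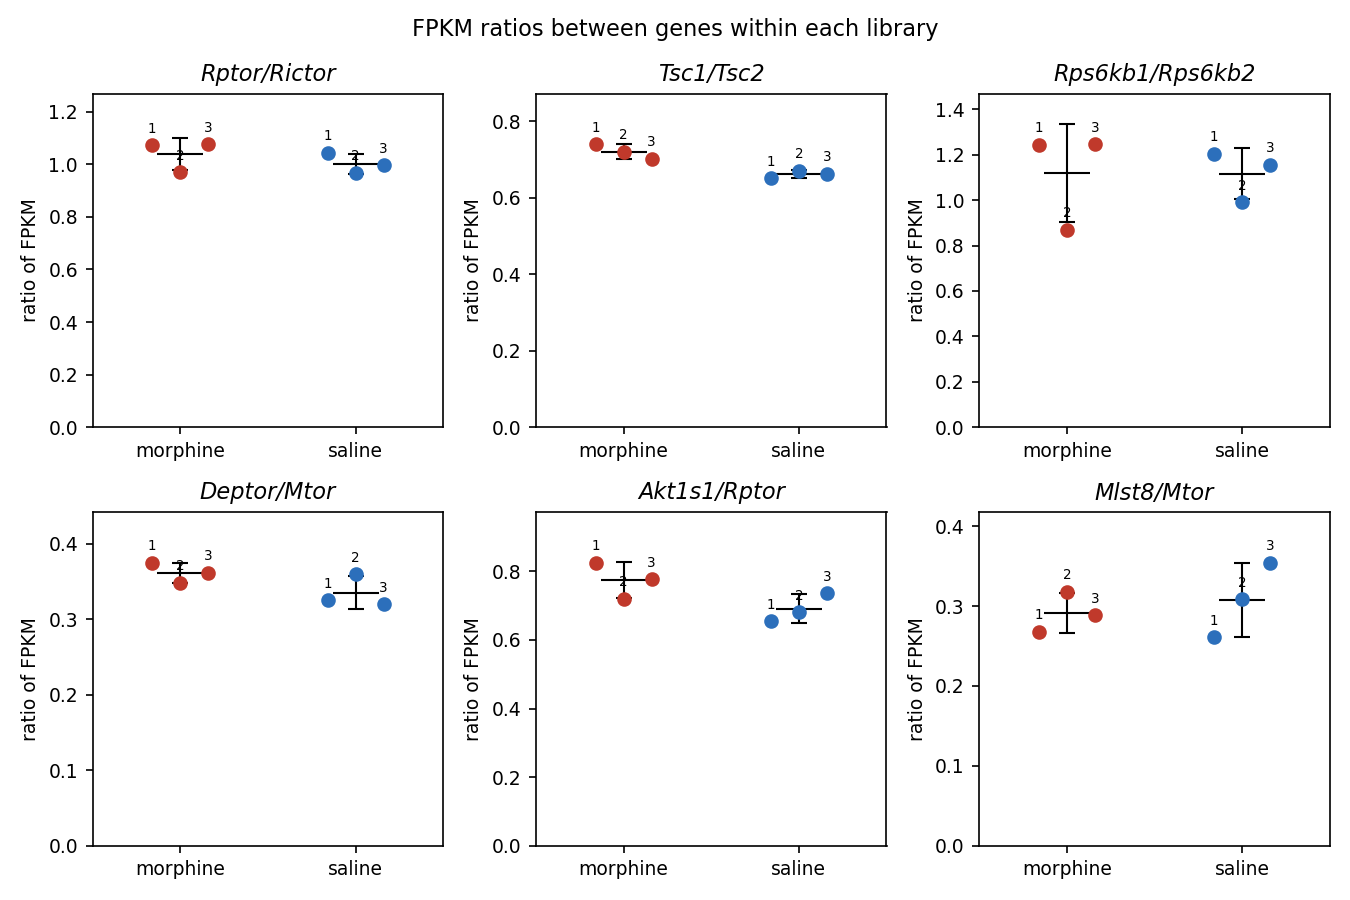
Ratio of the FPKM of 2 genes within each library for 6 pairs (points, numbered by replicate), with the mean and SD of the 3 libraries per group (lines), morphine left and saline right. The Tsc1 to Tsc2 ratio is 0.702 to 0.740 in morphine and 0.651 to 0.671 in saline, and the groups overlap in the other 5 ratios.

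Rps6kb1 and Rps6kb2 encode the S6 kinases S6K1 and S6K2, which mTORC1 activates and which phosphorylate ribosomal protein S6 and translation factors. Rps6kb1 had 7.72, 7.97 and 7.60 FPKM in morphine, against 8.13, 8.11 and 8.29 FPKM in saline. No morphine library reached the lowest saline one, also by CPM, where it had 67.7, 68.5 and 67.0 in morphine and 69.2, 70.5 and 71.7 in saline. The difference was about the size of its standard error, with a log2 fold change of -0.06 (SE 0.05, edgeR adjusted p = 0.779). Rps6kb1 was the 1 gene of the 10 whose groups did not overlap by CPM on the lower side, where 7.32% of all genes tested did so, and 0 of the 10 were apart on the higher side, where 5.98% did so. It also had the smallest SD within groups of the 10, at 0.02 on the log2 scale.

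Rps6kb2 was the most variable of the 10 genes. Rps6kb2 had 6.21, 9.17 and 6.10 FPKM in morphine, against 6.75, 8.18 and 7.18 FPKM in saline. Morphine 2 was the highest library and morphine 1 and 3 were the lowest, so that the SD within groups was 0.25 on the log2 scale and the highest library stood 1.46 times above the lowest by CPM. The log2 fold change was -0.03 (SE 0.15, 95% interval -0.37 to 0.31, edgeR adjusted p = 0.964), and it ranged from -0.23 to 0.07 with 1 library left out, the lowest value being that without morphine 2. The range was much wider than for Rps6kb1, which stayed between -0.07 and -0.04.

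**Figure D3:**
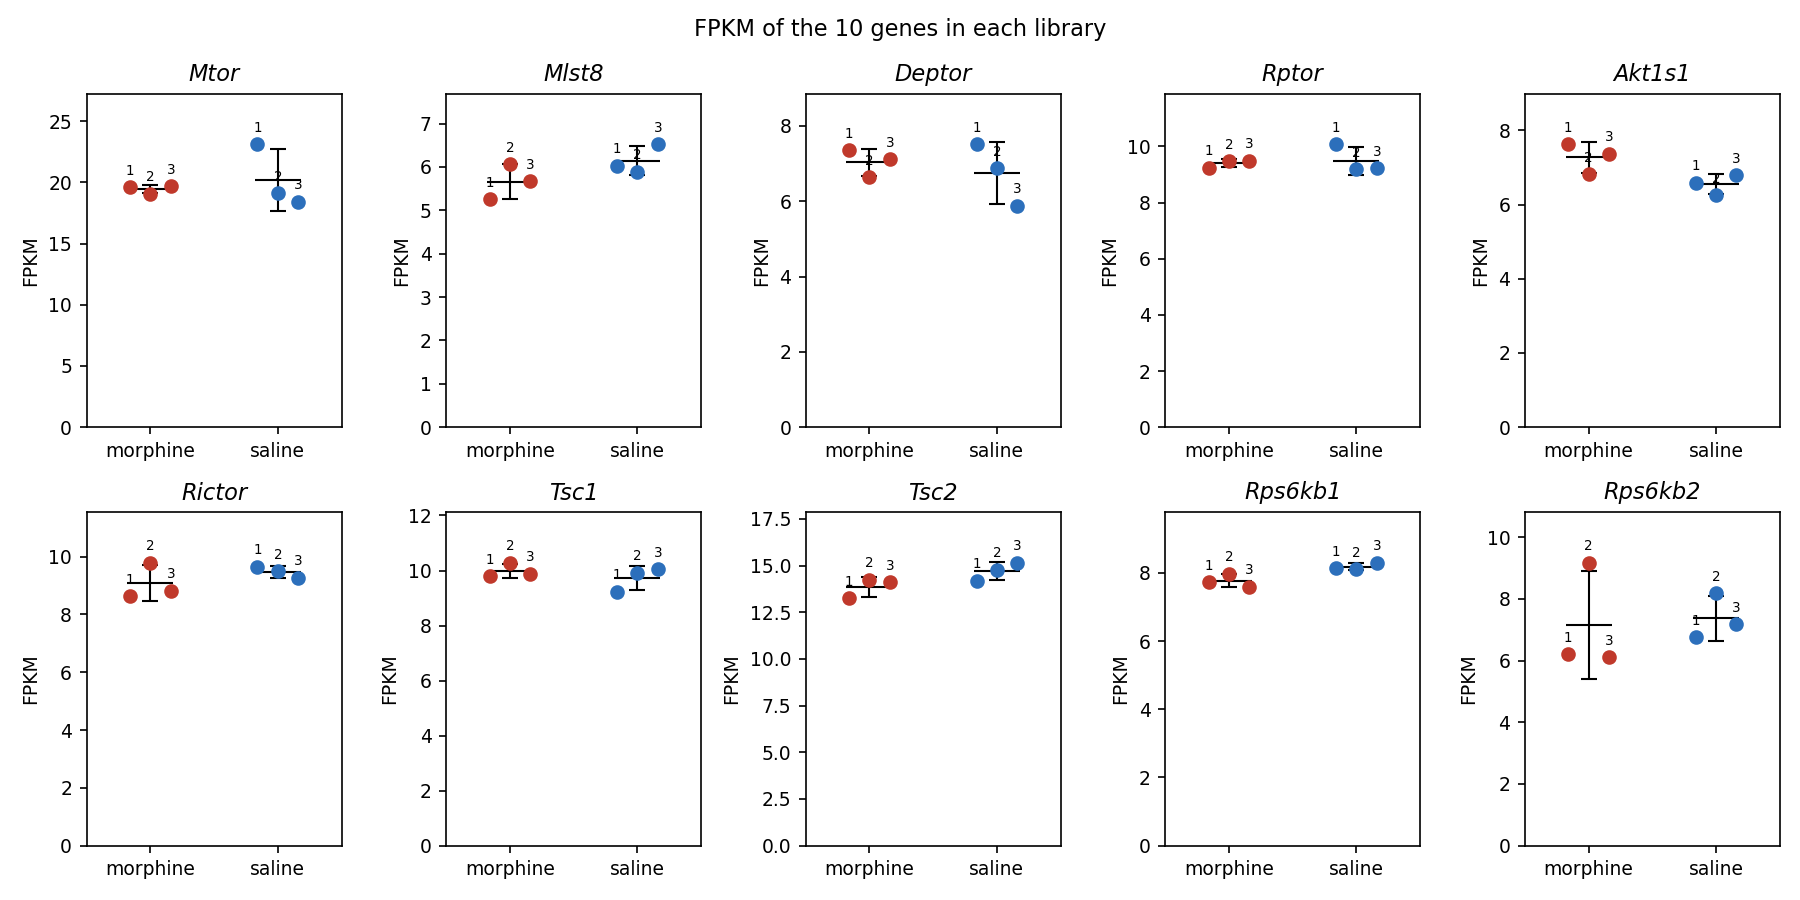
Level of each of the 10 genes in FPKM (vertical axes, each starting at 0) in morphine and saline libraries (points, numbered by replicate), with the mean and SD of the 3 libraries per group (lines). Rps6kb1 is lower in all 3 morphine libraries, Akt1s1 is higher in all 3 by FPKM, saline 1 stands out for Mtor at 23.1 FPKM, and Rps6kb2 ranges from 6.10 to 9.17 FPKM within the morphine group alone.

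By FPKM over all 6 libraries the order of the 10 genes was Mtor at 19.8, Tsc2 at 14.3, Tsc1 at 9.86, Rptor at 9.45, Rictor at 9.27, Rps6kb1 at 7.97, Rps6kb2 at 7.26, Akt1s1 at 6.91, Deptor at 6.90 and Mlst8 at 5.90 FPKM. Mtor was above Tsc2, and Tsc2 above Tsc1, in every library, and the ranges of these 3 genes did not meet. Rictor and Rps6kb1 were also apart. All other neighbours in the order overlapped, among them Tsc1, Rptor and Rictor, so no order can be read within that trio. The place of Rps6kb2 may depend on the gene model. Its deposited FPKM rests on a length of 2445 bases, whereas the merged exons of GENCODE M21 span 5167 bases. The same counts over that longer length would average 3.44 ± 0.568 FPKM, below all the others. Reads in the further exons may not have been counted, so this value may be too low and the place of Rps6kb2 stays uncertain. For the other 9 genes the length behind the FPKM was the merged exon length of that annotation.

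Several of the 10 genes overlap a gene on the opposite strand, and how the counting treated strand was not given in the sources used here, so reads of such partners may be shared or discarded. The largest overlaps of exons in GENCODE M21 were 1224 bases between Rps6kb2 and Ptprcap and 997 bases between Mlst8 and Bricd5. These partners had few counts, Ptprcap 1.42% of those of Rps6kb2 and Bricd5 4.33% of those of Mlst8. For Rps6kb2 the M21 exons span 5167 bases, against 2445 bases behind its deposited FPKM. How much of its overlaps lay in the counted model is therefore not known. The next overlap, of 693 bases, was between Tsc2 and Pkd1, the gene of polycystin-1. Pkd1 had 180% of the counts of Tsc2 over the 6 libraries and a log2 fold change of -0.11 (SE 0.09, edgeR adjusted p = 0.771), close to the -0.07 of Tsc2, and its part in the Tsc2 level was not tested. Akt1s1 shares 89 bases of exon with Tbc1d17, which had 147% of its counts and a log2 fold change within 0.01 of 0 (SE 0.07, edgeR adjusted p = 0.992). Rps6kb1 shares 155 bases with Rnft1, which had 27.1% of its counts and a log2 fold change of -0.12 (SE 0.11, edgeR adjusted p = 0.793). Rictor and Tsc1 overlap no other gene of the deposited table, which was the set searched. Mtor holds Angptl7 between its exons, with 31 counts in morphine and 32 in saline in all. Rps6kb2 shares 45 bases of exon with Coro1b, which had 227% of its counts and a log2 fold change of 0.04 (SE 0.07). The antisense transcripts Gm9920 in Deptor and Rptoros in Rptor had under 1% of the counts of the gene they overlap.

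The promoters of Akt1s1, Rps6kb1, Tsc1 and Tsc2 are shown as the start sites of the genes described at most length above, none of which passed the test. RefSeq promoters of GRCm38.p6, from 250 bases before to 50 bases after a start site, were at hand for 8 of the 10 genes, all but Deptor and Rps6kb2. Each is printed 5′ to 3′ in the direction of its gene. Capitals mark matches, on either strand, to 4 short motifs that were chosen after the sequences had been read: CCGGAAGT, bound by ETS factors, GCATGCGC, bound by NRF1, ATGGCGGC, bound by YY1, and CCAAT, bound by NF-Y. The windows are chr7:44850122-44850421 on the plus strand for Akt1s1, which lies within the annotated span of the gene, chr11:86544758-86545057 on the minus strand for Rps6kb1, chr2:28640983-28641282 on the plus strand for Tsc1, and chr17:24632578-24632877 on the minus strand for Tsc2.
Akt1s1: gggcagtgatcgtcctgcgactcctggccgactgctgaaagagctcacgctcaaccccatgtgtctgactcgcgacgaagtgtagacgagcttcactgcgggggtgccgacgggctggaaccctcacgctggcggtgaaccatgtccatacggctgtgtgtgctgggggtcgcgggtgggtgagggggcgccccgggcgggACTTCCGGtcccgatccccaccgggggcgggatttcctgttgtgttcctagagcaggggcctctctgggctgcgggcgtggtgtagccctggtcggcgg
Rps6kb1: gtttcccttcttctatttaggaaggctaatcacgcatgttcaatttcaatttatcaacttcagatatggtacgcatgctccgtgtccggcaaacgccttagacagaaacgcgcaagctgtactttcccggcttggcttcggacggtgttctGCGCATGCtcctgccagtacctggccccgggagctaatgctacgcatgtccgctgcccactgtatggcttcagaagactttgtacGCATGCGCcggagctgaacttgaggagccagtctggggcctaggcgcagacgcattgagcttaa
Tsc1: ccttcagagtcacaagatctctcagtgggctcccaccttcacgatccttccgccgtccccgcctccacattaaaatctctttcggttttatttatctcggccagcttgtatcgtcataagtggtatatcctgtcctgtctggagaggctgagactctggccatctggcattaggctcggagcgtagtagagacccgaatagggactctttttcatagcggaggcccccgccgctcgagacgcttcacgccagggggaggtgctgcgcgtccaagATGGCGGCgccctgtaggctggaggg
Tsc2: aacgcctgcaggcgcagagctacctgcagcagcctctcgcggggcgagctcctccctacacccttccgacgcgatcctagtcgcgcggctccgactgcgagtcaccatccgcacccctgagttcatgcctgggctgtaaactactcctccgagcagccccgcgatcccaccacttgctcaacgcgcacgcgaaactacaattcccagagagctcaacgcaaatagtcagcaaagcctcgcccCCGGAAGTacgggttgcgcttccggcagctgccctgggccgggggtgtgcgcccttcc
Akt1s1 and Tsc2 hold 1 ETS match each, and so does Mtor, while 3.89% of all 32851 promoters of that length hold one. Rps6kb1 holds 2 NRF1 matches, a motif found in 2.71% of all promoters. Tsc1 and Rictor hold 1 YY1 match each, a motif found in 2.24% of all promoters. CCAAT, which 37.4% of promoters hold, matched 4 times in Mtor and once in Rictor. The E-box CACGTG, bound by MYC and TFEB and held by 7.15% of promoters, was searched as well and matched in none of the 8. The shares over all promoters are given for context only, because the motifs were picked from these sequences. A match says only that the letters are there, and no binding was measured in these samples.

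Genes around the 10, from lists of regulators, partners and targets of the pathway, were read from the same fit. Of 127 such genes, all were tested, and 5 passed an unadjusted p under 0.05 in edgeR, 4 higher and 1 lower in morphine. This share was below the background of 7.72% over all genes. Of the 14280 protein-coding genes tested, 398 were called higher and 495 lower. None of the 127 passed after adjustment by edgeR or DESeq2. In DESeq2, 3 of them passed the unadjusted threshold, as did 1015 genes of the whole table, and no share over the genes DESeq2 tested was computed. Of the 5, Irs2, Stk11 and Strada stayed past the unadjusted threshold of edgeR without saline 1 and Gsk3a and Slc7a5 did not, and Irs2 was the only 1 that stayed past it with any library left out. The number depended on the libraries, since it was 9 without saline 1 or without morphine 2, 8 without saline 2, 3 without saline 3, 2 without morphine 1 and 1 without morphine 3. The median log2 fold change of the 127 genes was 0.03, against -0.01 over all genes and 0.002 over protein-coding genes. Of the 127, 68.5% were above 0, against 47.5% of all genes and 50.6% of all protein-coding genes tested. Non-overlapping groups were found for 7 of the 127 on the higher side, where 5.98% of all genes had them, and 4 on the lower side, where 7.32% had them, so neither share exceeded the background.

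Upstream, the input from growth factors held the gene of lowest p. Irs2, an adaptor of the insulin and IGF1 receptors that feeds PI3K and AKT, had 107, 104 and 107 CPM in morphine, against 86.4, 96.8 and 90.8 CPM in saline. All morphine libraries lay above all saline ones (log2 fold change 0.21, SE 0.06, edgeR adjusted p = 0.573). Of the 18 genes of that list, 14 had a log2 fold change above 0, with a median of 0.04. The share above 0 was 50.6% over all protein-coding genes tested and 68.5% over the 127 pathway genes. Akt1, the kinase that phosphorylates both PRAS40 and tuberin, was named after its values were seen. Akt1 had 131, 116 and 125 CPM in morphine and 116, 125 and 116 CPM in saline, and its groups overlapped.

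The list of RHEB, AMPK and stress input, of 16 genes, held 3 of the 5. The share called over all genes tested was 7.72%. Stk11 encodes LKB1, the kinase that activates AMPK, and Strada encodes the pseudokinase that holds LKB1 active. Stk11 had 49.4, 51.2 and 51.5 CPM in morphine, against 46.9, 45.2 and 45.2 CPM in saline (log2 fold change 0.15, SE 0.06, edgeR adjusted p = 0.616). Strada had 22.7, 26.2 and 21.6 CPM in morphine, against 29.9, 25.5 and 28.6 CPM in saline (log2 fold change -0.25, SE 0.10, edgeR adjusted p = 0.616). The fold changes of these partners had opposite signs, with groups apart for Stk11 and overlapping at morphine 2 for Strada. Gsk3a, a kinase that phosphorylates tuberin, had 130, 130 and 135 CPM in morphine, against 118, 123 and 124 CPM in saline (log2 fold change 0.11, SE 0.05, edgeR adjusted p = 0.630). None of the 3 passed after adjustment. Rheb, the direct target of the TSC complex, was named after its values were seen. It had 65.1, 71.1 and 71.3 CPM in morphine, against 72.8, 72.6 and 72.0 CPM in saline. The groups were apart, with morphine 1 farthest below, but the log2 fold change of -0.07 did not pass (SE 0.06, edgeR adjusted p = 0.764). Tbc1d7, the third subunit of the TSC complex, also named after its values were seen, differed by less than 0.01 on the log2 scale (SE 0.11).

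The amino acid branch, in which RAG GTPases bring mTORC1 to the lysosome and GATOR1 and GATOR2 set their state, held no gene past the unadjusted threshold among 13 RAG and 17 GATOR genes. The gene of lowest p there was Wdr24, a GATOR2 subunit, with 24.8, 22.02 and 23.4 CPM in morphine and 19.9, 21.4 and 20.5 CPM in saline (log2 fold change 0.18, SE 0.08, edgeR adjusted p = 0.638). Its groups did not overlap. Groups were also apart, on the lower side, for Bmt2, Kptn and Wdr59, with log2 fold changes of -0.12 (SE 0.07), -0.09 (SE 0.10) and -0.08 (SE 0.06), which did not pass either and were named after their values were seen. Among the RAG genes it was Fnip1, a partner of folliculin, at -0.08 (edgeR adjusted p = 0.689). Of the 6 genes of mTORC2 subunits and complex assembly, with 3 above 0 and 3 below 0, the lowest p belonged to Telo2, a factor that helps mTOR and related kinases to fold, at 0.09 (edgeR adjusted p = 0.828).

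Downstream, 0 of 13 mTORC1 substrates, 0 of 7 S6 kinase substrates and 0 of 7 SGK and PKC genes passed the unadjusted threshold. Eif4ebp2, the main 4E-BP of the brain, which was named after its values were seen, had 76.3, 76.4 and 75.3 CPM in morphine and 79.8, 71.1 and 71.4 CPM in saline, a log2 fold change of 0.04 (SE 0.06, edgeR adjusted p = 0.886). The lowest p among the mTORC1 substrates was that of Eif4ebp3, at 7, 15 and 17 counts in morphine and 20, 16 and 22 counts in saline (log2 fold change -0.47, SE 0.36, edgeR adjusted p = 0.745). Rps6, the S6 protein, had a log2 fold change of 0.10 (SE 0.06, edgeR adjusted p = 0.718), and since ribosomal protein genes have many near-identical pseudogenes its counts are uncertain. Prkcb, a PKC of forebrain neurons, had 928, 833 and 914 CPM in morphine and 695, 866 and 856 CPM in saline (log2 fold change 0.15, SE 0.08, edgeR adjusted p = 0.683), with saline 1 far below the other 5 libraries. Without saline 1 the log2 fold change of Prkcb was 0.05 (edgeR adjusted p = 0.779).

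Of the transcription programmes that mTORC1 is known to steer, the ATF4 list held 1 of its 12 genes past the unadjusted threshold. That share is close to the 7.72% of all genes tested that passed it. Slc7a5, which encodes the LAT1 leucine transporter, had 76.7, 77.2 and 79.2 CPM in morphine, against 66.9, 74.5 and 71.1 CPM in saline (log2 fold change 0.13, SE 0.06, edgeR adjusted p = 0.627). Its groups were apart, while 6 of the 12 genes were above 0 and 6 below 0. For the signs, 50.6% of all protein-coding genes tested and 68.5% of the 127 pathway genes had a log2 fold change above 0. In the TFEB list of lysosome and autophagy genes, 16 of 18 were above 0, with a median of 0.05 and none past the threshold. Its gene of lowest p, with groups apart, was Ctsb, the lysosomal protease cathepsin B, with 447, 423 and 441 CPM in morphine and 379, 416 and 412 CPM in saline (log2 fold change 0.12, SE 0.05, edgeR adjusted p = 0.638).

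**Figure D4:**
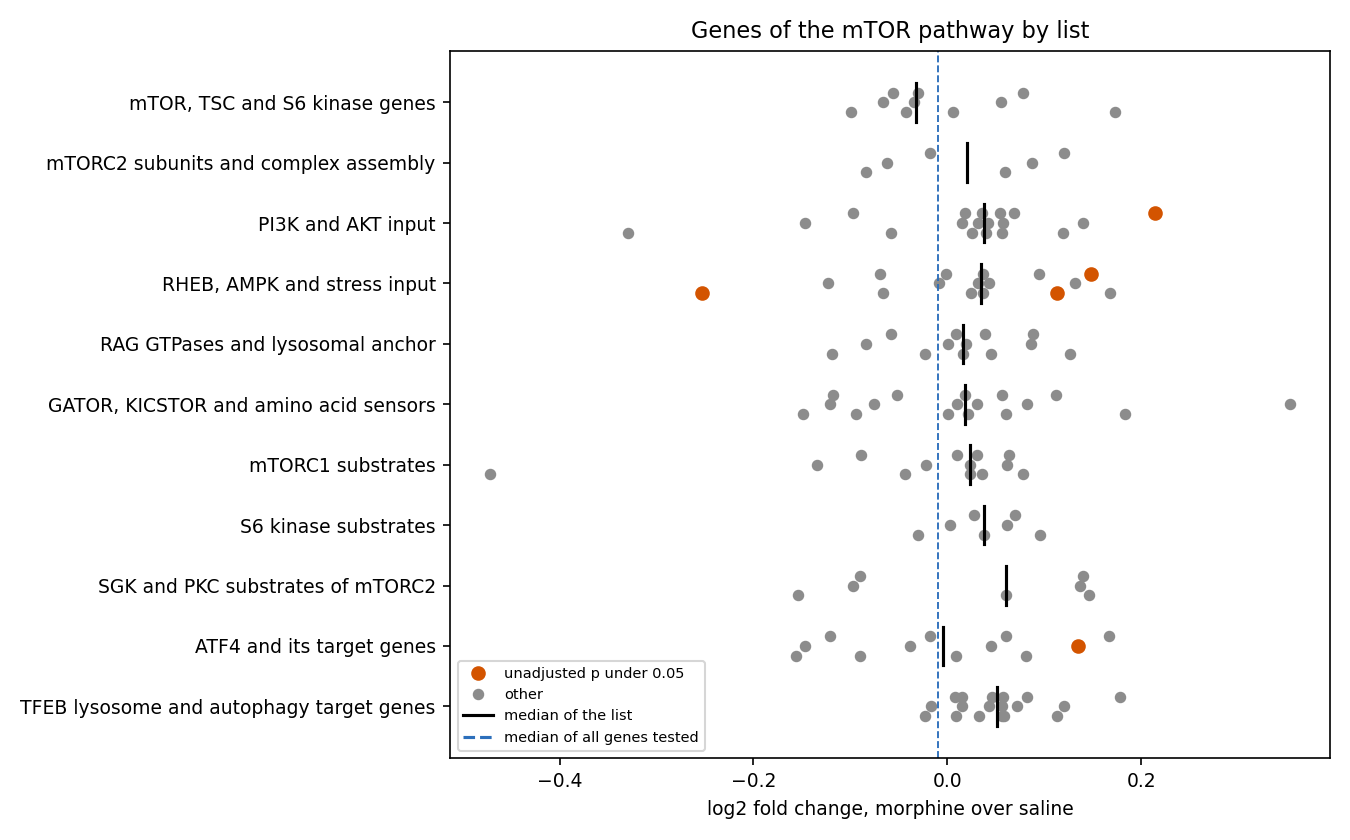
Log2 fold change, morphine over saline, of the 10 genes (top line) and of the 127 other genes of the pathway by list (1 point per gene). Black bars are list medians, the dashed line is the median of all genes tested at -0.01, and larger coloured points passed an unadjusted p under 0.05 in edgeR: Irs2, Stk11, Gsk3a and Slc7a5 to the right of 0 and Strada to the left.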

How the data were processed

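mPFC RNA of 3 morphine and 3 saline samples was sequenced, and sample labels gave the groups and replicate numbers. For each gene in each library, the authors deposited a count, which is a whole number with no normalization, and an FPKM value. Tools named in the submitters' processing notes, with no role given, were HISAT2 2.1.0, StringTie 1.3.3, HTSeq 0.11.2, cutadapt 1.9.3, limma 3.40.6, DESeq 1.8.3 and DESeq2 1.26.0, and the build was mm10. How the counting treated strand was not given in the sources used here. For the 13342 genes that reached 50 counts in all libraries, each deposited FPKM equalled the count over a gene length and a library factor. That length was within 1% of the merged exon length for 97.0% of 13336 genes.

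Genes that reached 10 counts in 3 or more libraries entered 1 fit of the whole table with edgeR 4.0.16 in R 4.3.3 (TMM scaling, quasi-likelihood F test, two-sided), which replaced the study's tool for pooled counts. P-values were adjusted by the Benjamini-Hochberg method across the 18970 genes tested. The SE was derived from the fold change and its F statistic, and the 95% interval from the t distribution of the same test. Depth and the spread between samples both limit the precision. Libraries held 17984153 to 23529592 counts, and the members 278 to 5318 counts per library. GENCODE M21, to which 31748 of 31763 genes matched, gave positions and overlaps, and RefSeq the promoters. The fit was tested on simulated counts.

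The members, gene lists and markers were chosen with earlier results of these data known. Named are all 10 members, from each pathway list the genes at an unadjusted p under 0.05 (up to 4) or else the gene of lowest p, and genes overlapping a member. Others are said to be named after their values were seen. As alternatives, the fit was repeated with DESeq2 1.42.0, with RLE factors, without the filter, with 10 counts required in each of the 6 libraries, with a block for the replicate number, and without each library in turn, and limma 3.58.1 was run on log2 FPKM with a pseudocount of 0.1 or 1 (FPKM of 0.1 or more in 3 or more libraries, and for the pseudocount of 0.1 also unfiltered). A chi-square test of counts found that replicates of a group differed beyond sampling noise, by 2.91 to 14.7 times the degrees of freedom. The highest values, 14.7 and 13.1, were those of saline 1 with saline 2 and with saline 3. All other pairs lay between 2.91 and 5.43.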

Additional observations from a re-analysis of the deposited data

How the results depend on the processing

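The count of 0 members at an adjusted p under 0.05 was the same under all 14 alternatives, with the lowest adjusted p at 0.421. At an unadjusted p under 0.05 it was 0 to 1 with a library left out, the 1 being Deptor without saline 1 and Akt1s1 without morphine 2, and 0 under the other alternatives. Over all genes, adjusted calls numbered 0 in edgeR but 15 in DESeq2 (3 higher, 12 lower), 279 with no filter on low counts (53 higher, 226 lower) and 0 to 193 with a library left out, 193 being the count without saline 1 (25 higher, 168 lower). Unadjusted calls over all genes numbered 2499 with no filter and 759 to 2193 with a library left out, lowest without morphine 1 (759) and morphine 3 (761). Unadjusted calls among the 127 pathway genes numbered 3 in DESeq2, 8 by limma on log2(FPKM + 0.1) with no filter, 2 with the replicate block and 1 to 9 with a library left out. The cause of these differences was not tested.

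Signs turned for Rptor, Mtor, Rps6kb2 and Deptor. The log2 fold change of Rptor was -0.013 by limma on log2(FPKM + 0.1), with and without the filter, and -0.012 on log2(FPKM + 1). With a library left out it was -0.012 to 0.042 for Rptor, -0.090 to 0.064 for Mtor, -0.23 to 0.068 for Rps6kb2 and between -0.0046 and 0.15 for Deptor. The other 6 members kept their sign under all alternatives. Samples of the same number did not deviate together, with correlations of their deviations of 0.02, 0.00 and -0.02, so the numbers are taken as names only. The replicate block gave 0 members and 0 genes at an adjusted p under 0.05 and 1315 genes at an unadjusted one.

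With 3 libraries per group, changes smaller than the intervals given cannot be seen, and for Rps6kb2 that interval reaches -0.37 and 0.31 on the log2 scale. RNA levels say nothing of the phosphorylation of these proteins.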
